A study of Mus musculus with 6 samples.

Results

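The collagen chain genes encode the alpha chains that trimerise into collagen molecules. They were taken as all rows of the count table whose Ensembl identifier belongs to a protein-coding mouse gene with a symbol of the form Col, a number, the letter a and a number, which gave 44 of 55335 gene rows. By structure 11 were fibrillar, 6 formed basement membrane networks, 9 were FACIT chains (fibril-associated collagens with interrupted triple helices) and 18 belonged to other types. Poly(A) RNA-seq was available for wild-type mouse embryonic fibroblasts (MEFs) in 2 groups: parental cells (Ctrl) and cells collected after they had passed the 3 μm pores of a transwell membrane within 15 h (Confine). The study compared them to look for regulators of confined migration. Confine cells were those that had crossed, so an effect of the passage and a selection of cells that cross cannot be told apart. Ctrl cells are described only as parental, so seeding on a membrane and collection from its lower side cannot be separated from these either. Nothing in the labels says that the libraries of a group came from separate cultures, and the p-values then measure only the spread between these libraries, which may be technical.

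In the fibroblast, each chain is made in the endoplasmic reticulum, hydroxylated on prolines and lysines, folded into a triple helix with its partner chains, secreted, trimmed and crosslinked. Glycine recurs at a fixed interval along the helix, since no larger residue can face its axis. Fibrillar chains form the cables of connective tissue, type IV chains form the sheet-like network of basement membranes, FACIT chains sit on fibril surfaces, and type VI chains build beaded microfilaments around cells.

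Both groups had 3 deposited columns, but the columns of Confine replicates 1 and 2 held the same value in all 55335 rows. They were counted as 1 library, called the repeated Confine library here, so the comparison was 3 Ctrl against 2 Confine libraries. Total counts ranged from 22287210 to 27853805 in Ctrl and were 32537550 and 27290138 in Confine. A gene was called upregulated or downregulated where edgeR's quasi-likelihood test gave a Benjamini-Hochberg adjusted p below 0.05 over 15881 genes tested. The labelled cell type was checked on 12 fibroblast markers other than collagens. Their summed level was 4566 to 4775 normalised CPM (counts scaled to a library of fixed size) in Ctrl and 8591 and 9541 CPM in Confine, a sum led by Vim (3476 CPM in the Ctrl mean and 6807 in the Confine mean) and Fn1. Of the 9 markers tested 5 rose and Postn fell (log2 fold change -0.96, adjusted p = 0.00557), beside 12.8% of all genes tested that rose and 10.2% that fell. Pdgfrb and S100a4 did not pass, with both Confine libraries below Ctrl. The markers Thy1, Lum and Dcn stayed under the filter on low counts, with at most 27 counts in any library.

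The classes differ in the coding sequence itself. Stretches from GENCODE M21 coding sequences are shown 5′ to 3′ because they carry the feature that defines a collagen, with the first 2 bases of each codon that starts with GG, a glycine codon, in capitals. The fibrillar and FACIT stretches begin their longest uninterrupted repeat, and the type IV stretch holds a break of 2 codons in the repeat.
Col1a1, codons 168 to 191: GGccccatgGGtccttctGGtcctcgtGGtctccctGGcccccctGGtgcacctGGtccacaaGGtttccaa
Col4a1, codons 212 to 237: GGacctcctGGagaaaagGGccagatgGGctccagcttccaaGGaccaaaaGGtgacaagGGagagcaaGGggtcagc
Col12a1, codons 2805 to 2828: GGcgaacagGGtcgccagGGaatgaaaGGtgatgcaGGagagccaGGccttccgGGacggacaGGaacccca

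Over the members, the longest uninterrupted run of such triplets had a median of 338 in the fibrillar class (range 216 to 344), 43.5 in the basement membrane class (39 to 66), 57.0 in the FACIT class (32 to 113) and 44.5 in the other types (23 to 87). Apart from Col24a1 (216) and Col27a1 (217), the fibrillar chains had 337 to 344 triplets in that run, whereas type IV chains held 22 to 27 separate runs of at least 6 triplets. Col12a1 spent 8.19% of its 3065 codons in such runs and Col1a2 77.2% of its 1372 codons.

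Collagen chains rose as a share of the transcriptome after pore passage. They took 0.766%, 0.788% and 0.653% of all counts in Ctrl and 1.04% and 1.06% in Confine, means of 0.736% ± 0.0727 (SD, n = 3) and 1.05% ± 0.0135 (SD, n = 2). The groups did not overlap, and the Confine mean was 1.43 times the Ctrl mean. An exact two-sided permutation test gave p = 0.1, the smallest value that 3 against 2 libraries allow, so no share or ratio below can pass 0.05. In these bulk libraries a change in the number of cells with a transcript and a change in transcript per cell cannot be told apart. The share grew by class to different extents: 1.32 times for the fibrillar chains, 1.66 times for the basement membrane chains, 1.88 times for the other types and 2.03 times for the FACIT chains, each with separate groups and p = 0.1 by the same exact test. Type I dominated the sum: Col1a1 and Col1a2 together held 0.494% ± 0.0418 of counts in Ctrl (SD, n = 3) and 0.591% ± 0.00635 in Confine (SD, n = 2). Without these 2 genes, a sum chosen after the values were seen, the remaining 42 rose from 0.241% ± 0.0309 to 0.459% ± 0.00717, a ratio of 1.91.

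**Figure D1:**
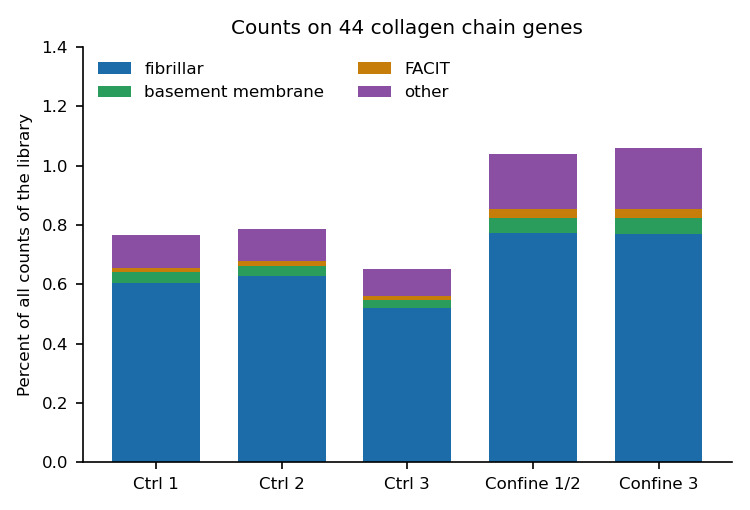
Stacked bars give the percent of all counts of each library that fell on the 44 collagen chain genes, coloured by class, for 3 Ctrl and 2 Confine libraries (Confine 1/2 is the repeated library). The 2 Confine bars reach 1.04% and 1.06% and stand above the Ctrl bars of 0.653% to 0.788%.

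Within the collagen counts the composition shifted. Col1a2 made up 32.5%, 33.9% and 33.7% of collagen counts in Ctrl and 22.9% and 24.8% in Confine, while Col3a1 went from 3.51%, 3.72% and 3.55% to 10.7% and 9.45%. Col1a1 kept a similar part, 32.9% to 34.8% in Ctrl and 33.4% and 31.3% in Confine, and its groups overlapped. The whole fibrillar class lay at 79.0% to 79.9% in Ctrl and at 74.3% and 72.7% in Confine, with the gap taken up by the other 3 classes.

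Of the 44 genes, 28 had enough counts to be tested: 16 were upregulated, 2 were downregulated and 10 did not pass. Among all genes tested, 12.8% were upregulated and 10.2% downregulated. For the tested chains the fitted log2 fold changes had a median of 0.75, against -0.0021 for all genes tested, and 23 of the 28 were above 0, where 49.8% of all genes were. The Ctrl and Confine libraries did not overlap for 18 chains that were higher and 3 that were lower in Confine, beside 25.9% and 23.6% of all genes tested. With the study's added cutoff of an absolute log2 fold change above 1.5, 6 chains were up (Col5a3, Col20a1, Col3a1, Col16a1, Col6a3 and Col23a1) and 1 was down (Col10a1), beside 4.89% and 3.11% of all genes. Scaling by library size alone shifted the median of all genes by -0.21, and then 13 chains were up and 3 down.

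**Figure D2:**
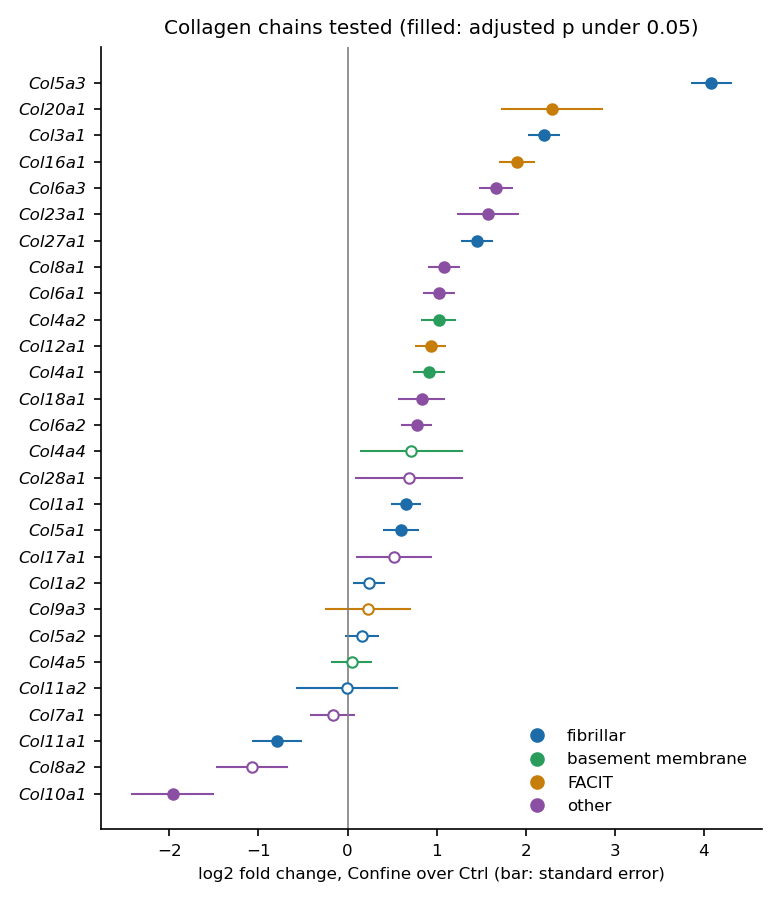
Points give the fitted log2 fold change (Confine over Ctrl) of the 28 collagen chains tested, bars the standard error, colours the class, and filled points an adjusted p below 0.05. Filled points run from Col10a1 at -1.96 to Col5a3 at 4.09, and 16 of the 18 lie to the right of 0.

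Fibrillar chains had 9 tested members, of which 5 rose, 1 fell and 3 did not pass, with a median log2 fold change of 0.60. The major fibrillar collagen, type I, is built from Col1a1 and Col1a2. Col1a1 (chromosome 11, 94936224 to 94953042, mm10) measured 2514, 2394 and 2152 CPM in Ctrl and 3820 and 3598 CPM in Confine. It was higher in both Confine libraries than in any Ctrl library, with a log2 fold change of 0.66 ± 0.17 (SE, adjusted p = 0.00945), which missed the threshold without Ctrl replicate 3 (0.58, adjusted p = 0.0800) and with scaling by library size alone (0.45, adjusted p = 0.0629). Col1a2 (chromosome 6, 4504814 to 4541544) measured 2398, 2465 and 2084 CPM in Ctrl and 2625 and 2852 CPM in Confine, a log2 fold change of 0.24 ± 0.18 (SE, adjusted p = 0.359). Its groups were also separate, but by a small margin.

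Because type I molecules usually hold both chains, their count ratio was read in each library. The Col1a1 to Col1a2 ratio was 1.05, 0.971 and 1.03 in Ctrl and 1.46 and 1.26 in Confine. The Confine ratios were both above all Ctrl ratios, a difference of 0.41 on the log2 scale (exact two-sided permutation p = 0.1, the smallest possible).

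Type III collagen, a homotrimer of Col3a1 that copolymerises with type I and is prominent in extensible tissue and wound repair, rose more than any other fibrillar chain but Col5a3. Col3a1 (chromosome 1, 45311538 to 45349706) measured 259, 271 and 219 CPM in Ctrl and 1221 and 1086 CPM in Confine. All Confine values stood far above all Ctrl values, a 4.62-fold rise with a log2 fold change of 2.21 ± 0.18 (SE, adjusted p = 5.78e-08). Against Col1a1, a ratio added after the values were seen, Col3a1 counts went from 0.103, 0.113 and 0.102 in Ctrl to 0.320 and 0.302 in Confine. Col5a2, whose gene ends 24614 bases from the end of Col3a1 on the opposite strand, did not pass, with a log2 fold change of 0.16 ± 0.19 (SE, adjusted p = 0.589). It measured 400, 382 and 297 CPM in Ctrl and 437 and 369 CPM in Confine, and these groups overlapped.

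Type V chains join type I fibrils and limit their diameter. The 3 chains moved unequally. Col5a3, the least abundant of them, measured 1.80, 2.91 and 2.68 CPM in Ctrl and 44.3 and 39.2 CPM in Confine. This 17.0-fold rise was the largest among the collagen chains tested, with a log2 fold change of 4.09 ± 0.23 (SE, adjusted p = 4.91e-10). Behind it stood raw counts of 52, 77 and 63 (Ctrl) and of 1310 and 987 (Confine). Col5a1, the chain shared by most type V molecules, measured 228, 264 and 166 CPM in Ctrl and 306 and 358 CPM in Confine, a log2 fold change of 0.60 ± 0.20 (SE, adjusted p = 0.0381). The call was lost with a smaller log2 fold change without Ctrl replicate 3 (0.42, adjusted p = 0.197), without Confine replicate 3 (0.48, adjusted p = 0.288) and with library size alone (0.39, adjusted p = 0.167). It was lost with a larger one without Ctrl replicate 1 (0.62, adjusted p = 0.0676) and without the repeated Confine library (0.71, adjusted p = 0.0806). The Col5a1 to Col5a2 count ratio was 0.571, 0.689 and 0.560 in Ctrl and 0.700 and 0.972 after confinement, a log2 difference of 0.45 (exact permutation p = 0.2). For Col5a3 over Col5a1, a pair added after the values were seen, the ratio was 0.00787, 0.0110 and 0.0161 in Ctrl and 0.145 and 0.109 in Confine.

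The remaining fibrillar chains were scarce. Col27a1, a fibrillar chain with a shorter and interrupted helix, had 15.9, 14.6 and 14.8 CPM in Ctrl and 40.5 and 42.3 CPM in Confine, a log2 fold change of 1.45 ± 0.18 (SE, adjusted p = 8.63e-06). Its groups lay far apart with little spread inside each. Col11a1, known from cartilage fibrils, fell from 7.60, 5.48 and 7.74 CPM in Ctrl to 3.18 and 4.84 CPM in Confine, with a log2 fold change of -0.79 ± 0.28 (SE, adjusted p = 0.0474). This call was lost without Ctrl replicate 1 (adjusted p = 0.139), without Ctrl replicate 3 (0.0961), without the repeated Confine library (0.367, log2 fold change -0.52) and without Confine replicate 3 (0.0510, log2 fold change -1.13). Its partner Col11a2 had 6 to 29 counts in Ctrl and 14 and 30 in Confine, and did not pass (adjusted p = 0.997). Col2a1 and Col24a1 never exceeded 5 counts and were not tested.

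Type IV chains of the basement membrane had 4 tested members, of which 2 rose and 2 did not pass, with a median of 0.82. Col4a1 and Col4a2, which form the network found in nearly all basement membranes, lie head to head on chromosome 8 and their annotations overlap by 22 bases (11198423 to 11312826, minus strand, and 11312805 to 11449287, plus strand). Col4a1 measured 146, 139 and 114 CPM in Ctrl and 250 and 250 CPM in Confine. Col4a2 measured 180, 170 and 121 CPM in Ctrl and 313 and 324 CPM in Confine. Both were above Ctrl in both Confine libraries, by log2 fold changes of 0.91 ± 0.18 (SE, adjusted p = 0.000892) for Col4a1 and 1.02 ± 0.19 (SE, adjusted p = 0.000655) for Col4a2. Their count ratio was 0.811, 0.815 and 0.941 in Ctrl and 0.798 and 0.773 after confinement, a log2 difference of -0.12 (exact permutation p = 0.3), with both Confine ratios just below the Ctrl ratios. Col4a5, a chain of the kidney filter network on the X chromosome, measured 11.6, 14.6 and 12.6 CPM in Ctrl and 10.3 and 16.5 CPM in Confine, and its groups overlapped (log2 fold change 0.05, adjusted p = 0.911). Col4a4 did not pass (5 to 20 counts), and Col4a3 and Col4a6 were not tested. Col4a6 had 4, 2 and 4 counts in Ctrl and 0 in both Confine libraries, too few to read a difference.

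FACIT chains had 4 tested members, of which 3 rose and Col9a3 did not pass, with a median of 1.42. Col16a1, a chain found with fibrillin microfibrils and thin fibrils, measured 26.9, 41.3 and 27.9 CPM in Ctrl and 116 and 124 CPM in Confine. The groups stood far apart, with a log2 fold change of 1.91 ± 0.20 (SE, adjusted p = 1.6e-06). Col12a1, which sits on type I fibrils, was the most abundant FACIT chain in counts and measured 109, 103 and 91.1 CPM in Ctrl and 188 and 197 CPM in Confine, a log2 fold change of 0.93 ± 0.17 (SE, adjusted p = 0.000609). Col20a1 passed on few counts, 15, 3 and 6 in Ctrl and 31 and 49 in Confine, with a log2 fold change of 2.29 ± 0.57 (SE, adjusted p = 0.00658). It did not pass without Confine replicate 3 (adjusted p = 0.169). It also shares 79 exon bases on the same strand with the transcript BX649560.1, which had more counts and was itself upregulated (log2 fold change 0.99, adjusted p = 0.0182), so its value is uncertain. Col9a1, Col9a2, Col14a1, Col19a1 and Col22a1 never exceeded 4 counts and were not tested.

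Type VI, the beaded filament collagen around cells, rose in all 3 of its tested chains. Col6a1 measured 451, 351 and 378 CPM in Ctrl and 795 and 806 CPM in Confine (log2 fold change 1.03 ± 0.18 SE, adjusted p = 0.000305). Col6a2, which lies 85161 bases from Col6a1 on the same strand of chromosome 10, measured 250, 246 and 201 CPM in Ctrl and 391 and 404 CPM in Confine (0.78 ± 0.18 SE on the log2 scale, adjusted p = 0.00334). Col6a3, the largest of the chains and encoded on chromosome 1, measured 200, 218 and 151 CPM in Ctrl and 554 and 647 CPM in Confine (1.66 ± 0.19 SE on the log2 scale, adjusted p = 3.96e-06). For each of the 3, both Confine libraries exceeded every Ctrl library. The filament is assembled from units that hold one copy of each chain, and the Col6a3 to Col6a1 count ratio was 0.443, 0.621 and 0.400 in Ctrl and 0.697 and 0.802 in Confine. That log2 difference of 0.64 had separate groups (exact permutation p = 0.2), and the Col6a1 to Col6a2 ratio differed by 0.25 (p = 0.2 by the same exact test). The chains Col6a4, Col6a5 and Col6a6 had at most 2 counts and were not tested.

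Among the short-chain network collagens, Col8a1 rose, Col10a1 fell and Col8a2 did not pass. Col8a1, a chain of the hexagonal network under endothelia and in vessel walls, measured 155, 172 and 127 CPM in Ctrl and 305 and 338 CPM in Confine, a log2 fold change of 1.08 ± 0.18 (SE, adjusted p = 0.000239). Col8a2, its homologue and partner, measured 2.11, 2.15 and 1.57 CPM in Ctrl and 0.743 and 1.11 CPM in Confine. Col8a2 did not pass (log2 fold change -1.08 ± 0.40 SE, adjusted p = 0.0644) although both Confine libraries were below all Ctrl libraries. The Col8a1 to Col8a2 count ratio was 73.7, 80.0 and 80.4 in Ctrl and 410 and 304 after confinement. The difference of 2.18 on the log2 scale was the largest of the 6 planned ratios read (exact permutation p = 0.1, the smallest possible). In Confine the ratio rested on 22 and 28 counts of Col8a2, little above the floor of 20 counts for a ratio. The planned pair Col11a1 and Col11a2 was not read because Col11a2 was under 20 counts in some libraries.

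Col10a1, the network chain of hypertrophic cartilage, was the chain with the largest fall. It had 115, 104 and 63 counts in Ctrl and 10 and 38 in Confine, which is 3.97, 3.93 and 2.68 CPM against 0.338 and 1.51 CPM. Both Confine libraries were below every Ctrl library, and the repeated library was the lowest. Its log2 fold change was -1.96 ± 0.47 (SE, adjusted p = 0.00459), with -1.22 without the repeated Confine library (adjusted p = 0.0793) and -3.37 without Confine replicate 3 (adjusted p = 0.000563). Col10a1 lies inside the gene Nt5dc1 on the opposite strand and shares 18 exon bases with it, and Nt5dc1 was also downregulated (log2 fold change -0.92, adjusted p = 0.0180). The library kit marks strand, but whether the counting used it was not stated, so the part of Nt5dc1 reads in the Col10a1 counts was not tested.

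Among the remaining types, Col23a1, a transmembrane collagen, measured 1.35, 1.28 and 0.893 CPM in Ctrl and 3.11 and 3.97 CPM in Confine (log2 fold change 1.58 ± 0.34 SE, adjusted p = 0.00235). Col18a1, the source of endostatin and a basement membrane zone component, measured 3.94, 2.91 and 3.19 CPM in Ctrl and 6.01 and 5.92 CPM in Confine (0.83 ± 0.27 SE on the log2 scale, adjusted p = 0.0299). Both were higher in every Confine than in any Ctrl library. The Col18a1 call was lost without Ctrl replicate 3 (adjusted p = 0.0757), without the repeated Confine library (0.134), without Confine replicate 3 (0.131) and with library size alone (0.0957). Col7a1, which makes the anchoring fibrils of skin, had overlapping groups and a log2 fold change of -0.17 (adjusted p = 0.690). The transmembrane chain Col17a1 and the scarce Col28a1 did not pass either, with log2 fold changes of 0.52 and 0.69. Col15a1 had at most 1 count, and Col13a1, Col25a1 and Col26a1 had none in any library, where a library's floor of 3 counts was 0.101 to 0.128 CPM.

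**Figure D3:**
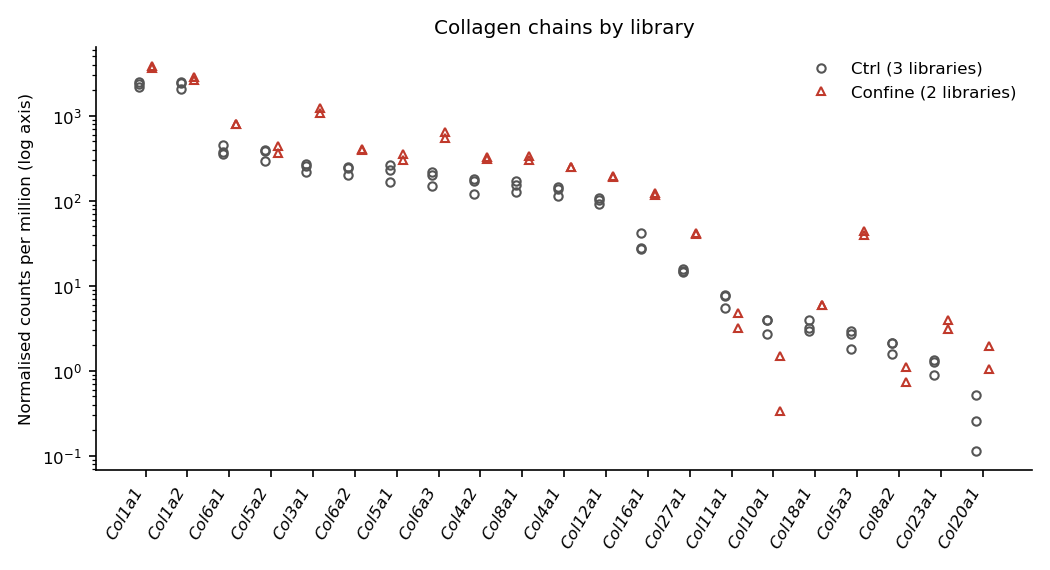
Each symbol is 1 library's normalised CPM on a log axis for the 18 collagen chains that passed and for Col1a2, Col5a2 and Col8a2, circles for 3 Ctrl and triangles for 2 Confine libraries, ordered by the Ctrl mean. The triangles of Col5a3 (39.2 and 44.3) stand above its circles (1.80 to 2.91), and those of Col10a1 (0.338 and 1.51) below its circles (2.68 to 3.97).

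**Figure D4:**
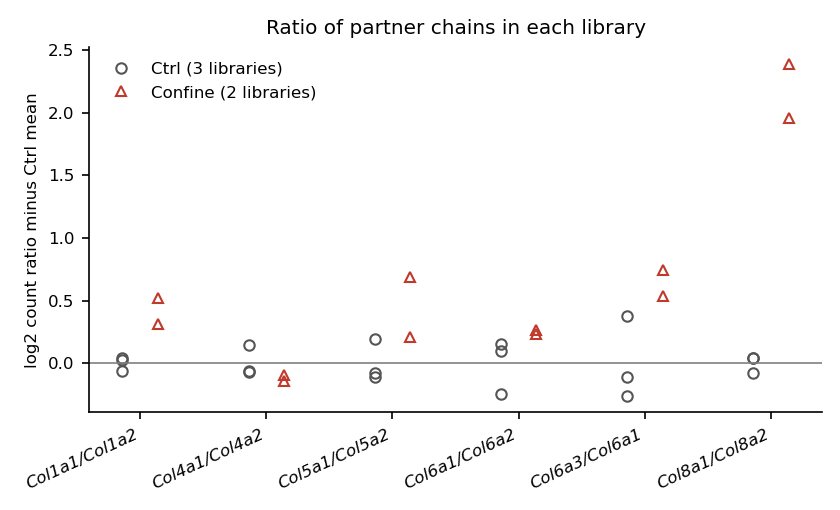
Symbols give the log2 ratio of the counts of 2 partner chains in each library minus the mean of the 3 Ctrl libraries, circles for Ctrl and triangles for Confine. Col8a1/Col8a2 stands 2.18 above the Ctrl mean on average, and Col4a1/Col4a2 0.12 below it.

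Compared between genes, levels were read per kilobase of merged exons. Type I led in both groups: Col1a1 had 358.5 ± 28.1 CPM per kb in Ctrl (SD, n = 3) and 565.2 ± 23.9 in Confine (SD, n = 2), and Col1a2 had 186.4 ± 16.4 and 220.4 ± 12.9. Col6a1 came next with 89.8 ± 11.8 and 182.8 ± 1.90 CPM per kb. Col5a2 and Col6a2 followed in Ctrl, at 37.5 ± 5.75 and 27.9 ± 3.27 CPM per kb, close to Col5a1 (25.8 ± 5.81) and Col3a1 (25.4 ± 2.75), and the spreads of these last 3 overlapped. In Confine the place after Col6a1 belonged to Col3a1 with 117.5 ± 9.72 CPM per kb. Col6a3 came after it in Confine with 50.2 ± 5.49 CPM per kb and overlapped in spread with Col4a2 (48.1 ± 1.11) and Col6a2 (47.7 ± 1.16).
These orders depended on the length used. The merged exons of Col1a2 span 12.4 kb but its longest coding transcript 5.35 kb, whereas the Col1a1 values were 6.56 and 5.93 kb. Per kilobase of that transcript, a length added after the data were seen, Col1a2 had 433.0 ± 38.0 CPM per kb in Ctrl and Col1a1 396.9 ± 31.1, within their spread of each other, and Confine had 512.1 ± 30.0 and 625.5 ± 26.5. On that length the Confine order after type I also turned: Col3a1 had 207.3 ± 17.2 CPM per kb and Col6a1 195.3 ± 2.02, within the spread of Col3a1. Col6a2 followed with 100.6 ± 2.45 CPM per kb, above Col6a3 (66.7 ± 7.30) and Col4a2 (49.4 ± 1.15). In Ctrl, Col3a1 had 44.9 ± 4.85 and Col6a1 95.9 ± 12.6 CPM per kb.

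The 250 bases before the annotated starts of 3 chains are shown, from RefSeq on GRCm38.p6, because Col5a3 and Col3a1 had the largest rises of the fibrillar class and Col10a1 the largest fall. They are written 5′ to 3′ on the strand of the gene, with matches to the motifs listed after them in capitals.
Col5a3, chr9:20815068-20815317, minus strand: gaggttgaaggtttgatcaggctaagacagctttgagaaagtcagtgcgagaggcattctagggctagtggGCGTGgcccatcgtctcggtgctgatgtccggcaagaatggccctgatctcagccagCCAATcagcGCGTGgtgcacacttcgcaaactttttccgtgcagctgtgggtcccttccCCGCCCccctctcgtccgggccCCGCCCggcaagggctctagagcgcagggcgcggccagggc
Col3a1, chr1:45311288-45311537, plus strand: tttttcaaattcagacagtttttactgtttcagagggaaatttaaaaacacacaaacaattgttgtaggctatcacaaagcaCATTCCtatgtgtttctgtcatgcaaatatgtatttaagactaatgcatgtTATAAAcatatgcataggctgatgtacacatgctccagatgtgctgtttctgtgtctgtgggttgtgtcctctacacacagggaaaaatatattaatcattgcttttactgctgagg
Col10a1, chr10:34389731-34389980, plus strand: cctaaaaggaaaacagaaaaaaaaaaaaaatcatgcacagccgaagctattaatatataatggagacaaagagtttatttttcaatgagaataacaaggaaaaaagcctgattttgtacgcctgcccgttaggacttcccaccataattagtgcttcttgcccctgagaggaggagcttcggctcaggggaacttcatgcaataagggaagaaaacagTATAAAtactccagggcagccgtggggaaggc

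Letters were searched on both strands, each motif on its own so that matches may overlap: the TATA box (TATAAA), the CCAAT box (CCAAT), the GC box (GGGCGG), the core of the hypoxia response element (ACGTG or GCGTG), the AP-1 site (TGANTCA) and the TEAD site (GGAATG). The Col5a3 window held 1 CCAAT box, 2 GC boxes and 2 hypoxia cores, the Col3a1 window 1 TATA box and 1 TEAD site, and the Col10a1 window 1 TATA box. A match is only a match of letters. In the 300 bases around the start that the RefSeq table holds, 35 of the 44 members had a promoter. The GC box was in 22 of the 35, beside 35.7% of all 32851 promoters, the hypoxia core in 13 (43.8% of all), the CCAAT box in 12 (37.4%), the TATA box in 5 (13.6%), the TEAD site in 4 (14.7%) and the AP-1 site in 1 (7.81%). Of the 16 chains that rose, 14 had a promoter there, and 10 of them held the GC box, 6 the hypoxia core, 5 the CCAAT box, 3 the TEAD site, 1 the TATA box and 1 the AP-1 site. The chains Col12a1, Col14a1, Col22a1, Col9a3, Col4a3, Col1a1, Col2a1, Col5a2 and Col26a1 were not matched.

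The enzymes and partners that act on the chains were counted from lists of the collagen pathway. Folding and hydroxylation had 21 genes tested, of which 8 rose and 2 fell, beside 12.8% and 10.2% of all genes tested. The median log2 fold change of the list was 0.40. Plod2, the lysyl hydroxylase of the telopeptides, rose by 3.70 on the log2 scale (SE 0.23, adjusted p = 1.77e-09), P4ha2 by 2.70 and P4ha1 by 1.74, both catalytic subunits of prolyl 4-hydroxylase. Serpinh1, the collagen chaperone HSP47, had a log2 fold change of -1.02 (SE 0.31, adjusted p = 0.0238) although its groups overlapped: 1183 ± 516 CPM in Ctrl (SD, n = 3) against 583 ± 256 in Confine (SD, n = 2). P4ha3, another catalytic subunit, also fell, by 0.79 on the log2 scale.

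Secretion and propeptide removal had 2 genes up and 1 down of 12 tested, near the 23.0% of all genes tested that passed in either direction. For this list and those below, the shares of all genes tested were 12.8% up and 10.2% down. Bmp1, which cuts the C-propeptide of fibrillar chains, rose by 0.91 and Furin, a proprotein convertase, by 0.68 on the log2 scale, while Pcolce2, an enhancer of that cut, fell by 0.96. Crosslinking had 3 of 7 tested genes up and none down: Loxl2 at 2.20, Lox at 1.76 (adjusted p = 1.24e-06) and Pxdn, which crosslinks type IV, at 0.61. Fibril partners went both ways, with 6 up and 5 down of 14. Of the small leucine-rich proteoglycans, Podn (3.77), Prelp (1.21) and Bgn (0.58) rose. Ogn (-2.73), Fmod (-1.38), Omd (-1.16) and Aspn (-0.89) fell. Tnxb, a tenascin, rose (1.66). Receptors had 1 up and 2 down of 10, near the 23.0% of all genes that passed in either direction. These were Cd44 at 0.75, the collagen-binding integrin subunit Itga1 at -2.43 and the type IV receptor Adgrg6 at -0.68. Breakdown had 5 up and none down of 10: the collagenase Mmp13 rose from 3.98 ± 1.08 to 298 ± 180 CPM (log2 fold change 6.22, adjusted p = 2.47e-10), Mmp9 by 4.18 and the cathepsins Ctsb and Ctsk by 0.67 and 0.60.

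**Figure D5:**
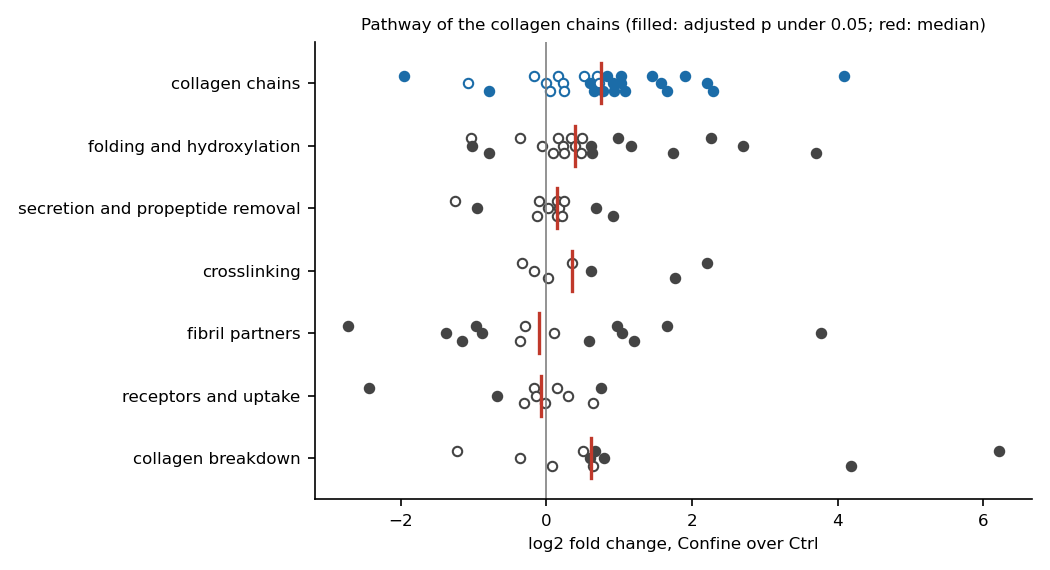
Each point is a tested gene's log2 fold change (Confine over Ctrl), filled where the adjusted p was below 0.05, in rows for the collagen chains and for 6 lists of genes that act on them, with the median of each row as a red line. The collagen chains have the largest median (0.75), and Mmp13 at 6.22 is the farthest point.

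Summed markers of other cell types differed between the groups. The 9 epithelial markers summed to 0.242 to 0.718 CPM in Ctrl and 4.02 and 8.10 CPM in Confine, with Epcam, Cldn4 and Grhl2 at 0 in all libraries. Krt19, the only one tested, carried the Confine sum (3.85 and 8.10 CPM) and rose (log2 fold change 4.84, adjusted p = 2.57e-07). The other 8 had at most 7 counts. The 9 endothelial markers summed to 0.595 to 1.36 CPM in Ctrl and 2.43 and 2.70 CPM in Confine, with Tie1, Emcn, Cldn5 and Sox17 at 0. Vwf, the only one tested, carried the Confine sum (2.43 and 2.54 CPM) and rose (log2 fold change 2.64, adjusted p = 0.00032). Pecam1, Cdh5, Kdr and Tek were lower in the Confine mean, but had at most 11 counts, too few to read a difference. The 11 leukocyte markers summed to 15.9 to 18.2 CPM and 35.9 and 41.5 CPM, with Adgre1, Cd3e and Tyrobp at 0. Of the 4 leukocyte markers tested, Cd68, Cd14 and Csf1r rose and Lyz2 fell (log2 fold change -2.64, adjusted p = 3.53e-05). The 8 chondrocyte markers other than collagens, beside which Col10a1 and Col11a1 can be read, summed to 43.7 to 50.9 CPM and 95.6 and 73.5 CPM, with Matn1 and Hapln1 at 0. Of the 2 tested, Sox9 rose (log2 fold change 0.97) and Comp did not pass. Sox9 carried the sum, with 40.4 CPM in the Ctrl mean and 78.8 in the Confine mean. Matn3, not tested, had 14, 8 and 8 counts in Ctrl and 0 and 3 in Confine. Acan, Snorc and Cnmd were higher in the Confine mean, but had at most 5 counts, too few to read a difference. The 7 osteoblast markers other than collagens, beside which type I can be read, summed to 336 to 422 CPM and 557 and 479 CPM, with Ibsp at 0. That sum was mostly Spp1, which rose (log2 fold change 0.52, adjusted p = 0.0486), while Alpl fell (-4.52, adjusted p = 6.33e-06) and Runx2 did not pass (-0.15). The 6 smooth muscle markers summed to 1909 to 3046 CPM in Ctrl and 1701 and 1596 CPM in Confine. Acta2, which carried this sum, did not pass (log2 fold change -0.59, adjusted p = 0.0557), nor did Cnn1 (-0.54, adjusted p = 0.17). Smtn (1.48, adjusted p = 2.1e-05) and Des (1.43, adjusted p = 0.000259) rose. Myh11 and Tagln, with at most 17 counts, were not tested. The 6 glial and neural crest markers summed to 4.93 to 5.56 CPM and 9.80 and 16.2 CPM, with Sox10, Ngfr and Foxd3 at 0 and Mbp as the 1 that passed (1.52). Their part in the collagen results was not tested.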

How the data were processed

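Poly(A) RNA was sequenced from 6 deposited samples, 3 Ctrl and 3 Confine. The authors deposited raw read counts per Ensembl gene. The submitters' processing notes name Trim Galore 0.6.10, HISAT2 2.1.0, SAMtools 1.5, featureCounts and the build mm10, but the annotation and strand setting of the counting were not given in the sources used here. All 6 columns were used, with the 2 identical Confine columns as 1 library. Of 55335 rows, 54587 matched GENCODE M21 with the identifier version and 55154 without it, and 0 rows named no gene.

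Counts were fitted in edgeR 4.0.16 (R 4.3.3) with filterByExpr, TMM scaling and the quasi-likelihood test, with Benjamini-Hochberg adjustment over 15881 genes and 3 residual degrees of freedom. CPM are TMM-scaled, and shares are of raw totals. A simulation of the Confine against Ctrl comparison on 15441 genes recovered 55.7% of 97 changes of log2 fold change 1 and 93.9% of 98 changes of 2. In it 12 unchanged genes also passed. It used the dispersions of this fit and changed far fewer genes than passed in the data. Shares and ratios were compared by exact two-sided permutation tests. Ratios needed at least 20 counts in every library. limma 3.58.1, DESeq2 1.42.0, other scalings, filters, left-out libraries and a replicate block were alternatives.

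The members, classes and lists were chosen with earlier results of these data known. Named with values per library were the members that passed, the 5 highest per length, both chains of each readable pair, and members whose groups did not overlap and averaged 50 counts or more. From each list the 2 largest and 2 smallest log2 fold changes among those passed were named, plus P4ha1, P4ha2, Plod2, Serpinh1, Lox and Mmp13. Other genes named with values were chosen after these were seen.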

Additional observations from a re-analysis of the deposited data

How the results depend on the processing

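Of the 18 chains that passed, 18 kept their direction in every alternative of the 14 fitted across genes and 12 passed in each that gave an adjusted p. The chains that rose numbered 13 (with library size alone, and also without Ctrl replicate 3) to 16, and 6 with the study's fold cutoff. Those that fell numbered 2, 3 with library size alone and with the identical columns as 2 samples, and 0 to 2 when libraries were left out in turn (0 without the repeated Confine library, 1 without Ctrl replicate 1, Ctrl replicate 3 or Confine replicate 3), and 1 with the fold cutoff. Beside the Col8a2 value in the report, Col8a2 passed with library size alone (adjusted p = 0.0262), with at least 10 counts in every library (0.0460) and with the identical columns as 2 samples (0.0102). Col11a1 did not pass with at least 10 counts in every library (adjusted p = 0.0523). With library size alone the fibrillar median was 0.39. Median log2 fold changes moved for the basement membrane chains to 0.61 with library size alone, and ranged from 0.60 to 1.05 without single libraries, for the FACIT chains to 0.93 with at least 10 counts in every library, and for the other types to 0.57 with library size alone. Changes of sign were limited to chains that did not pass. With library size alone they were Col4a5 (-0.16) and Col5a2 (-0.046). Leaving out a Ctrl library or Confine replicate 3 gave -0.011 to 0.38 for Col9a3, -0.33 to 0.14 for Col4a5, -0.42 to 0.35 for Col11a2, -0.024 to 0.68 for Col17a1 and -0.30 to 0.019 for Col7a1. With limma-voom Col11a2 had 0.16, and with the identical columns as 2 samples Col4a5 had -0.080 and Col11a2 0.11. The causes were not tested. Per kilobase of the longest coding transcript, Ctrl levels were 396.9 for Col1a1, 433.0 for Col1a2, 54.3 for Col5a2 and 58.8 CPM per kb for Col6a2. The larger difference in collagen share with TMM-scaled counts was 0.452 percentage points.

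The labels number replicates in both groups, but which number the repeated library carries is unknown. With the replicate block and that library as number 2, 14 chains rose and 1 fell, the basement membrane median was 1.07, and Col9a3 (-0.011), Col4a5 (-0.057) and Col11a2 (0.37) changed sign. The calls lost there were those of Col5a1, Col18a1 and Col11a1 (adjusted p = 0.157 for Col11a1). With the repeated library as number 1, 16 rose and 2 fell, and Col11a2 (0.42) and Col7a1 (0.022) changed sign. Same-numbered libraries deviated together with r of -0.083 and -0.007 as number 2 and 0.094 and -0.007 as number 1. With 2 Confine libraries the deviations of the one mirror those of the other, so these values cannot decide whether the numbers pair the samples. Chains with under 100 counts on average are limited by depth. Among them are Col10a1, Col20a1 and Col23a1, which passed, and Col8a2, Col17a1, Col4a4, Col28a1, Col9a3 and Col11a2, which did not. With 2 Confine libraries a left-out one leaves a lone sample whose spread is assumed to be that of Ctrl.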
